A study of Mus musculus with 24 samples.

Results

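Binding of CFP1 was compared between CCR6+, NKp46+ and DN group 3 innate lymphoid cells (ILC3s) of control mice, from the 6 anti-CFP1 libraries of that genotype among the 24 libraries of the study. They were chosen by genotype and antibody in the sample titles, and each subset had 2 libraries, numbered replicate 1 and replicate 2. All 6 came from small intestinal cells with floxed Cxxc1 alleles (Cxxc1flox/flox) and no Cre, called WT here. The age label reads 6 to 8 weeks, while the protocol text names both aged and young mice, so the age of these samples is not settled. Each library was made from 100000 sorted cells by CUT&Tag, a method that cuts and tags chromatin with a transposase tethered to an antibody. Set beside them, as reference, were the 6 WT libraries made with an antibody to trimethylated lysine 4 of histone H3 (H3K4me3) and the 6 anti-CFP1 libraries of cells called KO here, in which a Cre acts on the same floxed alleles. What DN stands for is not spelled out in the labels. Nothing in the labels says that the libraries of a subset came from separate animals, and the p-values below therefore measure the spread between these samples alone, which could be technical.

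CFP1 is the product of Cxxc1. Its CXXC zinc finger binds DNA at CpG dinucleotides that are not methylated, and it is a subunit of the SET1 complexes, which place H3K4me3 at the starts of active genes. ILC3s are lymphocytes of mucosal tissue that produce interleukin-22 and interleukin-17. CCR6+ ILC3s include the lymphoid tissue inducer cells, whereas NKp46+ ILC3s carry the natural cytotoxicity receptor encoded by Ncr1 and share part of a type 1 program with natural killer cells.

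The deposited data were 1 peak list per library. The lists hold no read totals, so the depth behind each is unknown, and where a peak is not listed it was not called at the depth of that library. Binding in a part of the cells and weak binding in all of them cannot be told apart. Each peak's fold enrichment is the authors' value within its own list and is used here to describe and rank peaks within that list. On the 19 autosomes and the X chromosome the 6 WT CFP1 lists together covered 11791 merged regions, a region being every stretch joined by peaks that share at least 1 b. A region or gene is called CCR6+-only where both CCR6+ lists and none of the other 4 hold a peak, and the same is meant by NKp46+-only and DN-only.

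The labelled subsets were checked at their defining genes. Ncr1 held an H3K4me3 peak in both NKp46+ lists, and also in CCR6+ replicate 2 and DN replicate 2. Ccr6 held one in both CCR6+ lists, and also in NKp46+ replicate 2 and DN replicate 2. CFP1 peaks did not mark the subsets in this way, since Ncr1 had none in any WT list and Ccr6 had one in CCR6+ replicate 2 alone (5.26-fold). Of 95 genes in 8 lists of other cell types and silent tissue genes (T cell, natural killer and ILC1, ILC2, B cell, myeloid, epithelial and stromal markers), 91 had no CFP1 peak in any of the 6 libraries. The other 4 were Zap70, Lat and Cd160, each in DN replicate 2 alone, and Gata3, which is on both the ILC2 and the ILC3 transcription factor lists and held CFP1 in CCR6+ replicate 2, NKp46+ replicate 1 and DN replicate 2. The absence of CFP1 was not particular to these lists. It was absent from all 6 libraries at 66.2% of all genes (14321 of 21631) and at 17 of 21 genes of the NKp46+ and type 1 program. By H3K4me3, the 12 T cell markers were marked at 8 and 11 genes in the CCR6+ libraries, 4 and 10 in the NKp46+ and 12 and 12 in the DN libraries (replicates 1 and 2), with Cd3e and Lck among those marked in all 6. B cell, myeloid, epithelial, stromal and silent genes were marked at 0 to 4 per list and library. Whether other cells were part of the sorted subsets was not tested.

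The promoters of 6 genes show the DNA at which these patterns lay. They are RefSeq promoters of GRCm38.p6 (the coordinates of mm10), from 250 b before to 50 b after the start of the gene, written 5′ to 3′ on the gene's strand with each CG dinucleotide in capitals. H2az2, a histone H2A.Z gene, had CFP1 in all 6 libraries, with 27 CG in chr11:6444394-6444693 on the minus strand. Hps1, a subunit of a complex for lysosome-related organelles, was CCR6+-only, with 16 CG in chr19:42779929-42780228 on the minus strand. Nme2, a nucleoside diphosphate kinase, was DN-only, with 28 CG in chr11:93955734-93956033 on the minus strand. Gzmb, the cytotoxic protease granzyme B, was NKp46+-only, with 2 CG in chr14:56262285-56262584 on the minus strand. Il7r, the receptor chain for interleukin-7, had CFP1 in the 3 replicate 2 libraries and in none of replicate 1, with 1 CG in chr15:9529827-9530126 on the minus strand. Ncr1, which defines the NKp46+ subset, had no CFP1 peak, and its promoter held 0 CG in chr7:4337465-4337764 on the plus strand.
H2az2: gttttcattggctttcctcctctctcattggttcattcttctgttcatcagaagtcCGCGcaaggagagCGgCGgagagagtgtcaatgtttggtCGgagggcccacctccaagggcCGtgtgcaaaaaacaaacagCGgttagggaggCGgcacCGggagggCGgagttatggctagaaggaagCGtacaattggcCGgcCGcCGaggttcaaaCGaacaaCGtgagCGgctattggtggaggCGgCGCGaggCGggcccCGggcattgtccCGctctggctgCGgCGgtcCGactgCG
Hps1: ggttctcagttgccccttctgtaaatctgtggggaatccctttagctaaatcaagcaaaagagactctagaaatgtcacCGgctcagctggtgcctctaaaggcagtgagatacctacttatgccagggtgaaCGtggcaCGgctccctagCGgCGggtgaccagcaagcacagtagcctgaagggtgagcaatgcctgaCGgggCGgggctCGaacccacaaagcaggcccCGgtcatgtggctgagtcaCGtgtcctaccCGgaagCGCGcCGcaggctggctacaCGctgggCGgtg
Nme2: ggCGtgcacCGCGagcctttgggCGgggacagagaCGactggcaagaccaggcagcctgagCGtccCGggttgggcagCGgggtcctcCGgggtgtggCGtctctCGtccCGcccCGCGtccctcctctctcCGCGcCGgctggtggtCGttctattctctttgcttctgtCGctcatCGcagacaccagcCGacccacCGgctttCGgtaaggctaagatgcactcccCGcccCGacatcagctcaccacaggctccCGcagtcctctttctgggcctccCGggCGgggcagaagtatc
Gzmb: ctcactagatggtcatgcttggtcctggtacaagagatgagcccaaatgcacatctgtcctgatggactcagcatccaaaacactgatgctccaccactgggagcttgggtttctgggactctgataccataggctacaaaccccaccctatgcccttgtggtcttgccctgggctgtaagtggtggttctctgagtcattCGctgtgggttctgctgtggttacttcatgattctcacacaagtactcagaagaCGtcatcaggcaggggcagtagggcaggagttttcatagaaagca
Il7r: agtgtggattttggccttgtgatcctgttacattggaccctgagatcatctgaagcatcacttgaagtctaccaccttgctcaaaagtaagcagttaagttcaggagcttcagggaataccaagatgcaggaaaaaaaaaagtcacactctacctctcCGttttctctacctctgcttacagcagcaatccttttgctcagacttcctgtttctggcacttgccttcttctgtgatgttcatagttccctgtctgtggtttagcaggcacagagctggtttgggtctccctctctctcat
Ncr1: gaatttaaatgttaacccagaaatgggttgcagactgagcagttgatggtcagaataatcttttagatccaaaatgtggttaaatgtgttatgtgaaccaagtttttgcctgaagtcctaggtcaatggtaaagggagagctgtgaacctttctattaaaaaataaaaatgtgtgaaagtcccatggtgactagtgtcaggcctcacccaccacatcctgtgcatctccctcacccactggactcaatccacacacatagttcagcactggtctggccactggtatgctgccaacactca

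Before the subsets are compared, the replicate numbers have to be described, because the 6 libraries stood apart by number. For CCR6+, NKp46+ and DN cells in turn, replicate 1 lists held 5226, 4749 and 4574 peaks and replicate 2 lists 7983, 5526 and 7703. The 3 lists of replicate 1 were all shorter than the 3 of replicate 2. A peak at a gene start, meaning one within 1000 b of an annotated start in either direction (or of either gene end where no start is listed), was the common kind in replicate 1, with 87.4% of CCR6+ peaks (95% Wilson interval 86.5 to 88.3), 87.5% of NKp46+ peaks (86.5 to 88.4) and 88.2% of DN peaks (87.2 to 89.1). In replicate 2 the shares were 57.7% (56.6 to 58.8), 61.2% (59.9 to 62.5) and 57.3% (56.2 to 58.4), and the 2 sets of 3 libraries did not overlap. The share was thus 87.7 ± 0.425% (SD, n = 3) in replicate 1 and 58.7 ± 2.17% in replicate 2. Median peak widths were 538 to 562 b in replicate 1 and 605 to 654 b in replicate 2. What a replicate number stands for is not given in the labels, and its part in the results below is shown by giving each number's values apart.

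No difference between the subsets in these measures passed a test. Lists of CCR6+ cells held 6605 ± 1949 peaks, those of NKp46+ cells 5138 ± 549 and those of DN cells 6139 ± 2213 (SD, n = 2 each), with an exact two-sided permutation p of 0.8 over the 15 ways to pair the libraries. The share of peaks at gene starts was 72.6 ± 21.0%, 74.4 ± 18.6% and 72.7 ± 21.8% (exact permutation p = 0.867, n = 2 each). Median widths of 603 ± 72.1, 572 ± 47.4 and 599 ± 52.3 b gave an exact permutation p of 0.733 (n = 2 each). The smallest p this exact test allows with 15 arrangements is 0.0667, so it could not pass 0.05 for any difference.

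The first question was how far CFP1 lay at the same sites in the 3 subsets. Of the 11791 regions, 2331 (19.8%) held a peak in all 6 libraries, while 3902 (33.1%) held one in a single library. Regions in 2, 3, 4 and 5 libraries numbered 1917, 1630, 1024 and 987. The shared regions had a median width of 1003 b, 92.2% lay at a gene start, and 99.6% held H3K4me3 in all 6 WT libraries. Their peaks ranked high within each list, with a median percentile of fold enrichment of 71.7, against 18.6 for regions of a single library, of which 31.8% lay at a gene start.

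**Figure D1:**
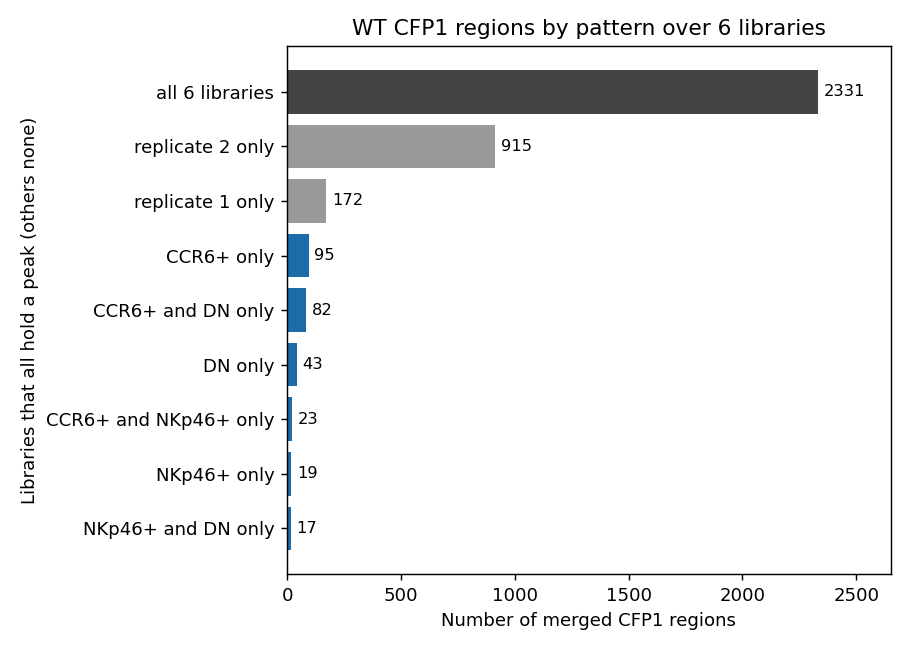
Number of merged CFP1 regions (x axis) for each pattern over the 6 WT libraries (y axis), where all libraries named hold a peak and the others none. Regions in all 6 libraries (2331) and in the 3 replicate 2 libraries alone (915) outnumber each pattern of 1 or 2 subsets, the most numerous of which holds 95 (CCR6+). With lists of equal length the replicate 2 and replicate 1 patterns hold 485 and 425 regions.

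CFP1 was at the start of 5284, 4812 and 4696 protein-coding genes in CCR6+, NKp46+ and DN replicate 1, which is 24.4%, 22.2% and 21.7% of those tested. In replicate 2 it was at 5223, 3881 and 5021 (24.1%, 17.9% and 23.2%). In at least 1 library it was at 7310 of 21631 genes (33.8%), and in all 6 libraries at 2544 (11.8% of genes tested). Each of these 2544 genes also held H3K4me3 in all 6 WT libraries, as did 7138 (97.6%) of the 7310 with CFP1 in at least 1. Of the 14321 genes with no CFP1 peak in any library, 2862 held H3K4me3 in all 6.

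The genes highest in within-list rank among those shared by all 6 libraries were led by H2az2, whose fold enrichments in replicates 1 and 2 were 17.1 and 17.3 for CCR6+, 14.7 and 12.9 for NKp46+, and 14.4 and 15.8 for DN cells, over chr11:6443902-6444738. All 6 values were at or above percentile 99.6 of their list. Gbe1, the glycogen branching enzyme, had 12.8 and 15.5, 13.5 and 13.2, and 14.8 and 15.2 in the same order, at chr16:70313940-70314504. Kat7, a histone acetyltransferase, had 12.7 to 15.0, and Ensa, an inhibitor of a mitotic phosphatase, 11.4 to 16.2. Mrps28, a mitochondrial ribosomal protein, had 9.51 in NKp46+ replicate 2 and 12.9 to 17.1 in the others. Rpl22l1, a ribosomal protein, had 11.6 to 15.6, and 1 peak of 11.1 to 17.3 was shared by Azi2, an adaptor of innate immune signalling, and its neighbour Zcwpw2. Of these genes, 0 are on the 4 ILC3 lists counted below. Those lists hold 89 of the 21631 genes tested, so a set of so few genes could lack them by its size alone.

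The second question was whether libraries of a subset resembled each other more than libraries of different subsets. The Jaccard index, the regions held by both libraries over those held by either, was 0.439 for the CCR6+ pair, 0.435 for the NKp46+ pair and 0.406 for the DN pair. Pairs of different subsets with the same replicate number had 0.508 to 0.622 (mean 0.582, 6 pairs), and pairs with neither in common 0.410 to 0.431 (mean 0.421, 6 pairs). Same-subset pairs thus averaged 0.427, against 0.501 for all pairs of different subsets, a difference of -0.0749 (one-sided exact permutation p = 0.733, 15 pairings, n = 2 libraries per subset). With the replicate number kept as a block the exact permutation p was 0.333 (6 pairings, smallest possible 0.167). Every same-number index lay above every index of the 2 other kinds, whereas same-subset pairs and pairs with nothing in common overlapped. As a share of each list, 77.2% of CCR6+ replicate 1 regions lay in replicate 2 and 50.4% the other way. The shares were 65.5% and 56.4% for NKp46+ and 77.5% and 46% for DN cells.

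**Figure D2:**
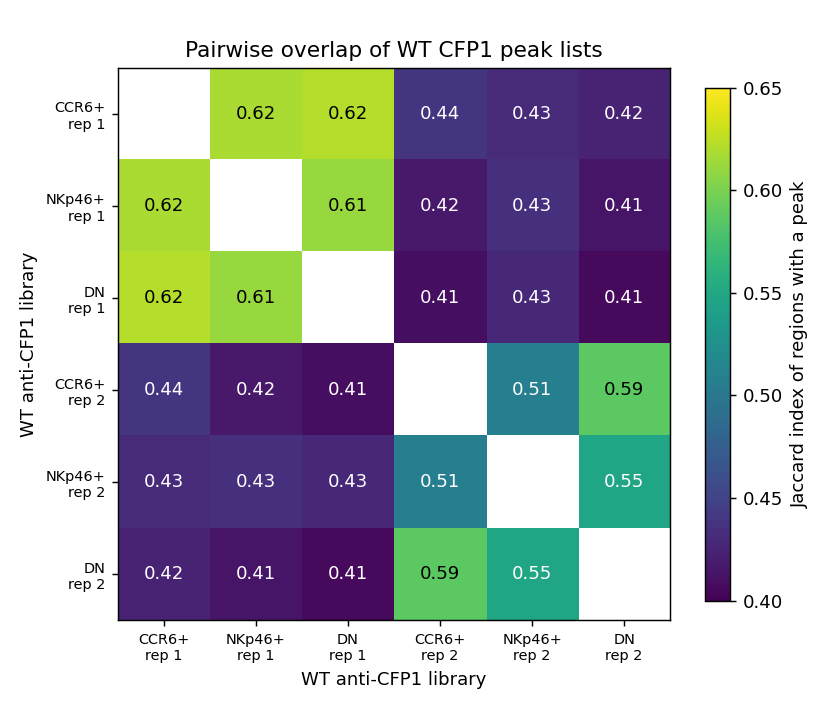
Jaccard index of merged regions for each pair of the 6 WT anti-CFP1 libraries (both axes: library, ordered by replicate number; colour: index, from 0.40 to 0.65). The 2 blocks of 3 libraries with the same number hold 0.51 to 0.62, and the pairs across the blocks hold 0.41 to 0.44, including the 3 pairs of the same subset.

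Within the 2331 regions held by all 6 libraries, ranks of fold enrichment followed the same order. Spearman's rho between libraries, given as a description over 2331 regions that share the rule of being in every list, was 0.498 to 0.529 for the 3 same-subset pairs, 0.685 to 0.821 for the 6 same-number pairs and 0.482 to 0.527 for the 6 others. Peak summits lay a median of 83 to 94 b apart in same-subset pairs, 58 to 87 b in same-number pairs and 86 to 93 b in the others. Summits lay within 1000 b of a RefSeq start for 75.7%, 75.7% and 77.0% of CCR6+, NKp46+ and DN peaks of replicate 1, and for 48.7%, 52.7% and 48.4% of replicate 2. For those summits the median position was 90, 82 and 82 b downstream of the start in replicate 1 and 85, 70.5 and 83 b in replicate 2. Chromosome 18 is not included in these summit positions, as it has no entry in the table of starts.

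**Figure D3:**
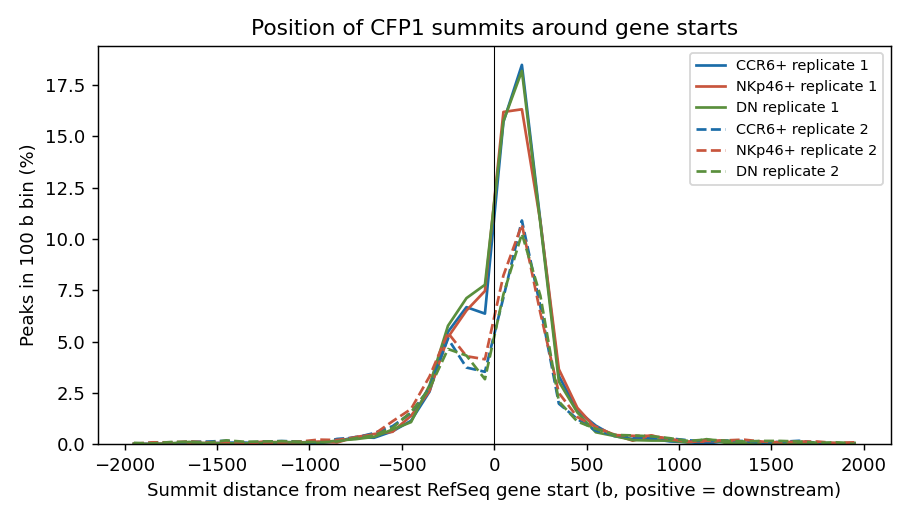
Share of peaks (y axis, percent) whose summit falls in each 100 b bin of distance from the nearest RefSeq gene start (x axis, b, positive downstream), 1 line per WT anti-CFP1 library, solid for replicate 1 and dashed for replicate 2. All 6 lines peak just downstream of the start, and the lines of a replicate number run together whatever the subset.

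The third question was which sites were biased to a subset. CCR6+-only regions numbered 95 (0.806% of regions), NKp46+-only regions 19 (0.161%) and DN-only regions 43 (0.365%). Patterns over a pair of subsets held 82 regions for CCR6+ and DN, 23 for CCR6+ and NKp46+, and 17 for NKp46+ and DN. By replicate number, 915 regions were in the 3 replicate 2 libraries and no other, and 172 in the 3 of replicate 1 and no other. With every list cut to 4574 peaks, as described below, these counts were 485 and 425. Two-sided Fisher's exact tests of 2 libraries against the other 4 called 0 of 9460 regions for CCR6+, for NKp46+ and for DN (0.0%) after Benjamini-Hochberg adjustment. The same test called 0 of 4766 genes for each subset (0.0%), with 0 regions and 0 genes at an unadjusted p under 0.05, since the smallest exact p that 2 against 4 libraries allows is 0.0667 (adjusted p = 1.0). Subset bias is therefore described here and rests on no test per site.

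The biased regions were low in their lists. The median within-list percentile of fold enrichment was 27.3 for CCR6+-only, 22.1 for NKp46+-only and 26.0 for DN-only regions, with median widths of 616, 541 and 594 b. They lay at a gene start in 72.6%, 63.2% and 76.7% of cases, against 55.6% of all regions. When every list was cut to its 4574 peaks of smallest p-value, the length of the shortest list, CCR6+-only regions numbered 40, NKp46+-only 42 and DN-only 23. The order of the subsets by number of biased regions therefore changed with list length.

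Taken within 1 replicate number, many more regions stood alone in a subset, and most of them did not recur. In replicate 1, 894 regions were in the CCR6+ list and not in the other 2, 639 in the NKp46+ list and 517 in the DN list, while 3228 of 6658 (48.5%) were in all 3. In replicate 2 the numbers were 1871, 531 and 1456, with 4227 of 10390 (40.7%) in all 3. Of the 894 regions alone in CCR6+ in replicate 1, 95 were alone in CCR6+ again in replicate 2, 11 were alone in NKp46+, 55 alone in DN, 197 in all 3 and 401 in none. Of the 639 alone in NKp46+, 19 were alone in NKp46+ again, fewer than the 46 alone in CCR6+ or the 43 alone in DN. Of the 517 alone in DN, 43 were alone in DN again, 42 in CCR6+ and 18 in NKp46+. The recurring regions were 10.6% of the replicate 1 and 5.08% of the replicate 2 set for CCR6+, 2.97% and 3.58% for NKp46+, and 8.32% and 2.95% for DN cells. With lists of 4574 peaks the recurring regions numbered 40 for CCR6+ (against 21 each alone in NKp46+ and in DN), 42 for NKp46+ (against 18 and 24 alone in CCR6+ and DN) and 23 for DN (against 24 and 49 alone in CCR6+ and NKp46+).

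At genes, CFP1 was CCR6+-only at 80 (0.37%), NKp46+-only at 11 (0.0509%) and DN-only at 33 (0.153%) of the 21631 tested. Among the CCR6+-only genes of highest rank was Hps1, whose promoter is shown above. It had 9.18 and 6.59 in CCR6+ replicates 1 and 2 and no peak in the other 4 libraries (chr19:42779595-42780045). A single peak of 7.20 and 8.18 lay at a RefSeq start of Ndst2, a heparan sulfate sulfotransferase (chr14:20734081-20734765). It was also counted for its neighbour Camk2g, a calcium-dependent kinase, at an annotated end that may not be the start. With the whole gene counted, Camk2g did not keep the CCR6+-only pattern. Cstf2, a factor for mRNA 3′ end cleavage, had 7.02 and 6.02, and Nop58, a core protein of box C/D small nucleolar particles, had 6.23 and 6.13. Pank1, the first enzyme of coenzyme A synthesis, had 6.15 and 6.92 at a RefSeq start inside the annotated span, and Fam53b had 6.19 and 5.35. Each of these genes held H3K4me3 in all 6 WT libraries, as did 97.6% of all genes with CFP1 in any WT library.

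Of the 11 NKp46+-only genes, 1 is on the list of the NKp46+ and type 1 program, Gzmb. Gzmb had a CFP1 peak of 5.28 in NKp46+ replicate 1 and 4.57 in replicate 2 and none in the CCR6+ and DN lists, over chr14:56261832-56262659. Its H3K4me3 peak was listed in both CCR6+, both DN and NKp46+ replicate 2 lists, but not in NKp46+ replicate 1, so the mark was not NKp46+-only. In the KO lists CFP1 was at Gzmb in NKp46+ replicate 2 and DN replicate 2. The 300 b promoter printed above was itself touched by CFP1 in 1 of the 2 NKp46+ libraries. Zfp346, a zinc finger protein that binds double-stranded RNA, had 6.64 and 4.02, Nfxl1 had 4.84 and 4.89, and Nemp2 had 5.64 and 3.75 at a start inside the gene. Wif1, a secreted Wnt inhibitor, had 4.84 and 4.20, and Pcyt1a, of phosphatidylcholine synthesis, 4.49 and 3.92. With the whole gene counted, Pcyt1a did not keep the NKp46+-only pattern. Chchd5 and Ago1, an Argonaute protein of small RNA silencing, had 3.57 to 4.27 in the 4 values. With peaks of 5-fold or more, 0 of these 8 genes kept the NKp46+-only pattern. The same cut kept 8 of the 8 highest-ranked CCR6+-only and 4 of the 8 highest-ranked DN-only genes. These genes were ranked by fold enrichment and drawn from 11, 80 and 33 genes in that order. Median fold enrichment also ran from 5.17 in NKp46+ replicate 2 to 6.23 in CCR6+ replicate 1. The cut therefore does not compare the classes.

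Highest in rank among the DN-only genes was Nme2, which had 6.90 and 7.02 in DN replicates 1 and 2 and no peak elsewhere (chr11:93955622-93956012). Polr2c, a subunit of RNA polymerase II, had 6.00 and 5.94 (chr8:94857416-94858012). Ost4, of the oligosaccharyltransferase, had 5.76 and 4.95, and Clcn5, a chloride transporter, 6.10 and 5.30. Atp2c1, a Golgi calcium pump, had 5.81 and 5.18, and Arhgef3, a guanine nucleotide exchange factor, 4.90 and 5.13, both at starts inside the gene. Grhl1, a Grainyhead-like transcription factor, had 5.38 and 4.96, and Cenpw, a kinetochore protein, 4.94 and 5.55. With the whole gene counted, Atp2c1, Arhgef3 and Grhl1 did not keep the DN-only pattern. All 33 DN-only genes held H3K4me3 in all 6 WT libraries, near the 97.6% of all genes with CFP1 in any WT library.

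Genes with CFP1 in both libraries of a pair of subsets and neither of the other numbered 89 for CCR6+ and DN (0.411%), 24 for CCR6+ and NKp46+ (0.111%) and 15 for NKp46+ and DN (0.0693%). Ino80c, a subunit of the INO80 remodelling complex on chromosome 18, had 8.88 and 10.9 in CCR6+ and 8.84 and 9.87 in DN cells, and no NKp46+ peak. Bag3, Ndufab1 and Dph5, which act in protein quality control, mitochondrial fatty acid synthesis and diphthamide synthesis, had 6.10 to 9.08 in the same 4 libraries. Trappc6b, a vesicle tethering subunit, had 10.6 and 8.49 in CCR6+ and 6.80 and 6.90 in NKp46+ cells. Mff, a mitochondrial fission factor, had 6.87 and 9.05, and 5.64 and 7.84. Htd2 and Rpp14, which share 1 annotated span, had 5.09 to 7.34. NKp46+ and DN cells shared Ift52, of intraflagellar transport, with 8.23 and 4.65, and 8.36 and 7.07. They also shared Ccar2 and 1 peak at both Taf5l and Urb2, with 4.79 to 7.27.

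H3K4me3 was present in all 6 WT libraries at 76 of the 95 CCR6+-only regions (80.0%), 12 of the 19 NKp46+-only regions (63.2%) and 39 of the 43 DN-only regions (90.7%), and in none at 7, 4 and 4. Over all 11791 regions these shares were 63.6% in all 6 and 20.4% in none, so the NKp46+-only regions were at the level of all regions. At CCR6+-only regions the share with H3K4me3 was 91.6% and 88.4% in the CCR6+ lists, 81.1% and 84.2% in NKp46+ and 84.2% in each DN list. At DN-only regions it was 90.7% in each of the 6 lists. Regions where CFP1 and H3K4me3 were both limited to the same subset numbered 3 of 95 for CCR6+, 0 of 19 for NKp46+ and 0 of 43 for DN. The share of all 11791 regions with H3K4me3 limited to 1 subset was not counted here. Whether these numbers differ from any set of regions is therefore not known. In the other direction, H3K4me3 was limited to both CCR6+ libraries at 105 genes, to both NKp46+ at 4 and to both DN at 20. At 0 of these genes did both libraries of that subset hold CFP1. A CFP1 peak in any WT library was at 3, 0 and 3 of them. The 33.8% of all genes with such a peak is not a like comparison. Of those 7310 genes, 7138 held H3K4me3 in all 6 WT libraries, which these genes by their rule did not. The CCR6+-only, NKp46+-only and DN-only CFP1 patterns were at 0.37%, 0.0509% and 0.153% of all genes, so sets of 105, 4 and 20 genes could lack them. The few with a CFP1 peak in any WT library, named after their values were seen and with 1 library each, were Rassf8, Rab36 and Tnfaip2 in the CCR6+ set, and Elapor1, its neighbour 1700013F07Rik and Actn2 in the DN set.

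Anti-CFP1 peaks in the KO cells, whose lists ranged from 714 to 8881 peaks, were counted at the same regions. At least 1 KO list held a peak at 97.8% of the regions shared by all 6 WT libraries, at 35.8% of CCR6+-only, 63.2% of NKp46+-only and 48.8% of DN-only regions, and at 64.3% of all regions. What gives rise to peaks in KO cells was not tested. By list, the share of the shared regions was 95.8% in KO DN replicate 2 and 80.1% in KO NKp46+ replicate 2. In the other KO lists it was 24.6% to 44.0%. For the CCR6+-only regions this came to 1.05% in each KO CCR6+ list, 14.7% in KO NKp46+ replicate 2 and 28.4% in KO DN replicate 2. For NKp46+-only regions it was 0.0% in both KO CCR6+ lists and 31.6% and 47.4% in the same 2 replicate 2 lists. Over all regions the shares were 11% and 10.2% in the KO CCR6+ lists, 37.2% in KO NKp46+ replicate 2 and 60.1% in KO DN replicate 2. Genes without a CFP1 peak in any KO list were 55 of the 2544 shared genes (2.16%), 54 of 80 CCR6+-only (67.5%), 5 of 11 NKp46+-only (45.5%) and 19 of 33 DN-only genes (57.6%), against 2112 of the 7310 genes with CFP1 in any WT library (28.9%).

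The regions in the 3 replicate 2 libraries and no other had a lower share at gene starts than each subset class. Of these 915, 18.3% lay at a gene start, 44.8% elsewhere in a gene or within 1000 b of it, and 36.9% outside genes, with a median width of 844 b. H3K4me3 was present in all 6 WT libraries at 35.8% and in none at 21.3%. A KO CFP1 peak overlapped 92.0% of them in DN replicate 2, 66.6% in NKp46+ replicate 2 and 17.2% in CCR6+ replicate 2, but 0.109% to 1.42% in the 3 KO replicate 1 lists. The 172 regions of replicate 1 alone lay at a gene start in 97.1% of cases and held H3K4me3 in all 6 libraries in 99.4%. What sets the replicate numbers apart was not tested.

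CpG content, which the rule for the classes did not use, was counted in 21020 RefSeq promoters of 300 b. Promoters touched by CFP1 in no library had a median of 7 CG, those in 1 to 5 libraries 21, 23, 24, 25 and 25, and those in all 6 libraries 27, against 13 over all promoters. The motif CG, the same on both strands, was found at least once in 95.5% of all promoters. At least 10 CG were found in 57.3% of all promoters, 40.6% of those without CFP1 and 98.8% of those with CFP1 in all 6 libraries. The median was 23.5 for CCR6+-only (70 promoters), 20.5 for NKp46+-only (16) and 25.5 for DN-only promoters (28). It was 26 for the 185 promoters of replicate 1 alone and 20 for the 141 of replicate 2 alone. Promoters with H3K4me3 in all 6 WT libraries and CFP1 in none had a median of 19 (2808 promoters). The printed Gzmb, Il7r and Ncr1 promoters, with 2, 1 and 0 CG, lie at or below the lower quartile of promoters without CFP1, which is 2.

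**Figure D4:**
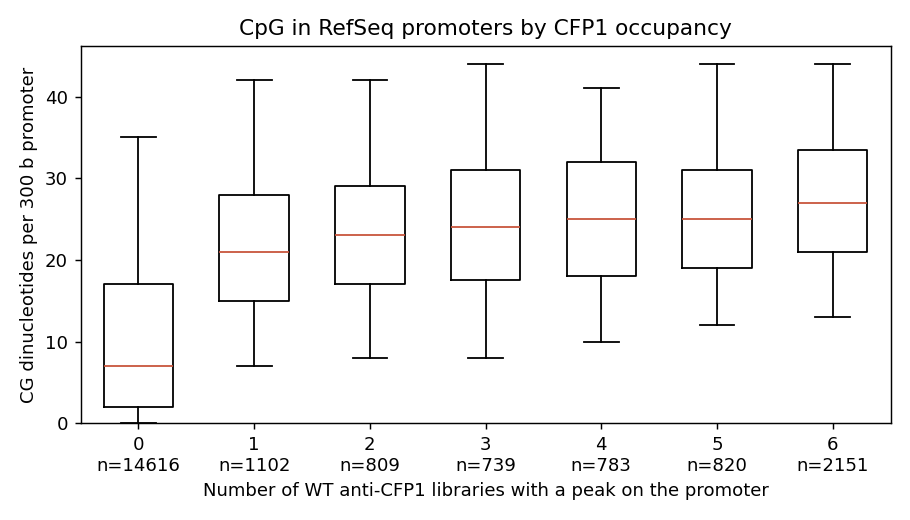
CG dinucleotides per 300 b RefSeq promoter (y axis) by the number of WT anti-CFP1 libraries with a peak on the promoter (x axis, with the number of promoters). Lines are medians, boxes the quartiles and whiskers the 5th and 95th percentiles; the median goes from 7 with no library to 21 with 1 and 27 with all 6.

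Genes grouped by role were then counted. For the SET1 and MLL complexes, which write H3K4 methylation, CFP1 was at the start of 16, 15 and 13 of 20 genes in CCR6+, NKp46+ and DN replicate 1 and of 13, 10 and 12 in replicate 2. All 6 libraries held it at 9, which include the methyltransferases Setd1a (5.44 and 6.07 for CCR6+, 6.47 and 6.05 for NKp46+, 7.89 and 6.49 for DN), Kmt2c and Kmt2d. Also among the 9 were the core subunit Rbbp5, the SET1 subunit Wdr82 (7.59 to 10.7 over the 6), and Kdm6a, a demethylase of lysine 27 carried by MLL complexes. Kmt2e, counted with this list, was another. Setd1b, the other SET1 enzyme, was CCR6+-only at low values of 3.54 and 3.82. Wdr5, a core subunit, had CFP1 in both CCR6+ libraries (6.03 and 4.88) and NKp46+ replicate 1 (4.82), and in neither DN library. Dpy30, another core subunit, was in the 3 replicate 1 libraries alone. At Cxxc1 the peak was in CCR6+ replicate 1 (4.93) and DN replicate 1 (5.90), not in either NKp46+ library.

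The demethylases of H3K4 had CFP1 at 4 to 6 of 6 genes in each library, with Kdm5a, Kdm5c and Kdm1b in all 6. Of 12 genes with a CXXC domain, 3 to 7 held CFP1 in a library and 0 in all 6. Kdm2b, which brings a Polycomb complex to CpG islands, held it in the 3 replicate 2 libraries alone, and Mbd1, a reader of methylated DNA, in the 3 of replicate 1.

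The list counts can be read against the 17.9% to 24.4% of all genes with CFP1 per library, and the 66.2% with none in any. Of 20 genes of the CCR6+ program, 3 and 8 had CFP1 in the CCR6+ libraries (replicates 1 and 2), 2 and 3 in the NKp46+ libraries and 2 and 6 in the DN libraries, and 11 had none in any. Lta, a lymphotoxin gene, was the 1 member with CFP1 in all 6 libraries, with 5.30 and 8.85 for CCR6+, 3.34 and 8.09 for NKp46+ and 5.14 and 9.27 for DN cells, higher in replicate 2 in each subset. Cxcr5, a chemokine receptor of lymphoid follicles, held it in both CCR6+ libraries (4.57 and 5.57), in DN replicate 2 (6.69) and in neither NKp46+ library. Of 21 genes of the NKp46+ and type 1 program, 0 and 3 had CFP1 in the CCR6+ libraries, 1 and 3 in the NKp46+ and 0 and 2 in the DN libraries. None of the 21 had it in all 6, and 17 had it in none, among them Tbx21, the master regulator of the type 1 program, which held H3K4me3 in all 6. Gzmb was the single NKp46+ program gene with CFP1 in both NKp46+ libraries and no other.

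Transcription factors of ILC3s held CFP1 at 9, 11 and 7 of 26 genes in CCR6+, NKp46+ and DN replicate 1 and at 17, 13 and 15 in replicate 2. Rbpj, Relb, Cbfb, Maf, Stat3 and Zfp36l2 held it in all 6. Ahr, the sensor of dietary ligands that ILC3s need, had it in 5 libraries, not in CCR6+ replicate 1, with 8.18 in NKp46+ replicate 1. Cytokine receptors and effectors held it at 5 of 22 in each replicate 1 library and at 8, 8 and 7 in replicate 2. In all 6 libraries were Tgfbr1, Tgfbr2, Il17ra, Ifngr1 and Il10rb. Il23r, the receptor for interleukin-23, held H3K4me3 in all 6 and CFP1 in none.

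Over these 4 ILC3 lists together (89 genes), 12 genes had CFP1 in all 6 libraries, 49 in none, 1 in a single subset (Gzmb), 9 in the 3 replicate 2 libraries alone and 0 in the 3 of replicate 1 alone. Over all genes, 11.8% had CFP1 in all 6 libraries and 66.2% in none, and the last 2 patterns made up 0.791% (171) and 0.915% (198). The 9, singled out after their pattern was seen, were Runx1 and Runx3, which encode partners of Cbfb, the Notch1 receptor, Il7r, Il2rb, Stat4, Cd69, the lymphotoxin gene Ltb and the antigen presentation gene H2-Aa. Il7r had 7.1, 7.22 and 6.70 in CCR6+, NKp46+ and DN replicate 2. In the same order Runx3 had 8.47, 6.26 and 7.89, Stat4 8.63, 4.42 and 4.45, and Ltb 3.17, 3.17 and 3.83. Each of the 9 also had a CFP1 peak in at least 1 KO library, with KO DN replicate 2 among them in each case. This was common to the pattern, as 13 (7.60%) of all 171 replicate 2-only genes had none in any KO library. Of genes with CFP1 in any WT library, 28.9% had none. In the 3 lists of H3K4 enzymes and CXXC genes (35 genes), 3 were in replicate 1 alone (Dpy30, Mbd1, Riox1) and 1 in replicate 2 alone.

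**Figure D5:**
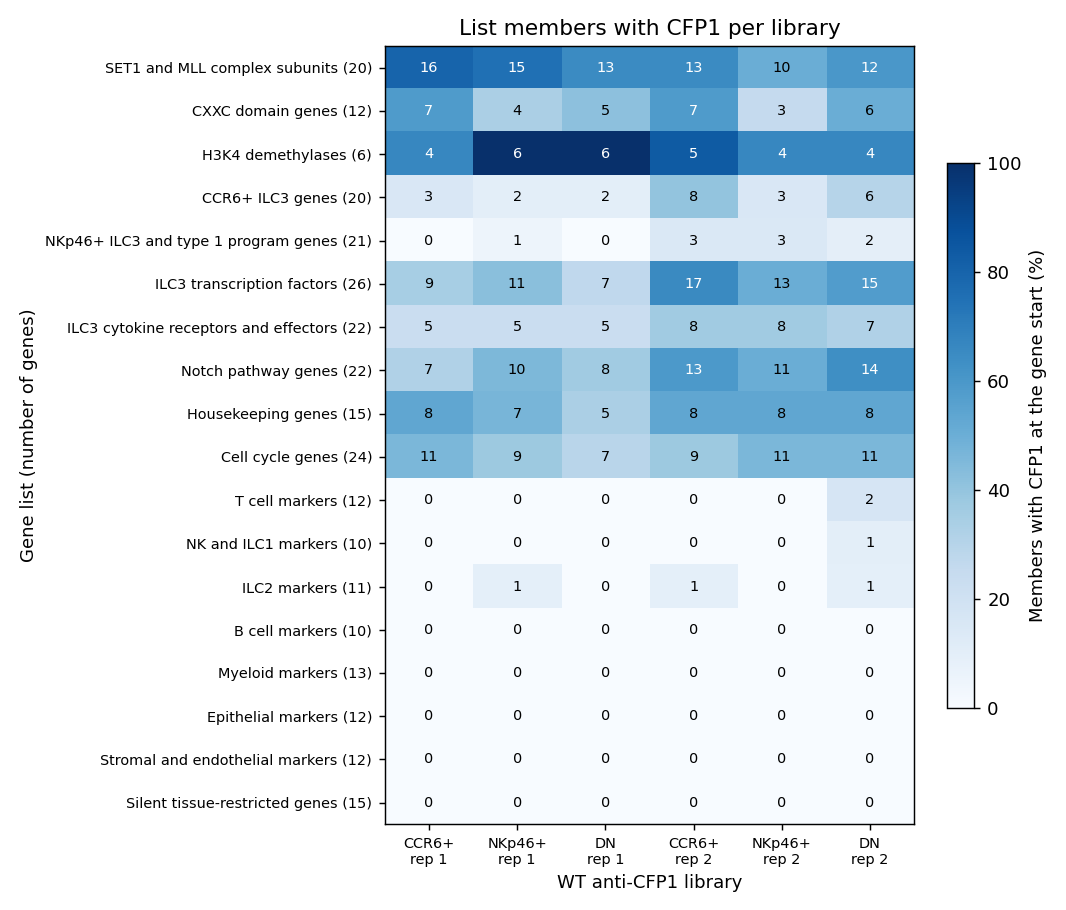
Number of genes with CFP1 at the start (printed) and their share of each gene list (colour, percent) in each WT anti-CFP1 library, with the libraries ordered by replicate number and the list sizes in parentheses. SET1 and MLL genes hold CFP1 in 10 to 16 of 20 in each library, ILC3 transcription factors in 7 to 11 of 26 in replicate 1 and 13 to 17 in replicate 2, and B cell, myeloid, epithelial, stromal and silent lists are at 0 in all 6.

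Of 22 Notch pathway genes, 7, 10 and 8 had CFP1 in CCR6+, NKp46+ and DN replicate 1 and 13, 11 and 14 in replicate 2, with 7 in all 6 libraries. Hey1, a Notch target, was DN-only at 3.73 and 4.15. Of 24 cell cycle genes, 7 to 11 had CFP1 in a library and 3 in all 6. Cdk4, a G1 kinase, had it in NKp46+ replicate 2 (6.52) and both DN libraries (5.53 and 5.87), and in neither CCR6+ library. E2f3, a transcription factor of S phase entry, had it in both CCR6+ (4.62 and 3.48) and both DN libraries (4.47 and 3.54). Housekeeping genes had CFP1 at 5 to 8 of 15. Over all genes, 588 (2.72%) had CFP1 in both libraries of at least 1 subset and neither library of another. Of the 4 ILC3 lists 2 of 89 genes did, Gzmb and Cxcr5, and of the H3K4 and CXXC lists 2 of 35, Wdr5 and Setd1b.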

How the data were processed

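Mouse ILC3 CUT&Tag peak lists were used, 1 per library. Group, antibody and replicate number came from the sample titles. The submitters' processing notes name MACS2 2.2.7.1, ChIPseeker 1.28.3, Picard, fastp 0.19.7 and Bowtie2 2.3.5.1, and the build mm10. Settings, any control library and duplicate removal are not stated in the labels or file headers. For each peak the authors deposited a position, a summit, a fold enrichment (ratio) over background, and both p-value and q-value as −log10. The lists hold no read totals, and a deeper library can give more and wider peaks.

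Autosomal (19 chromosomes) and X peaks were merged where they shared 1 b or more. Gene starts came from the RefSeq promoter table of GRCm38.p6 for 17274 of 21631 protein-coding genes (79.9%). For the other 4357 (20.1%), Camk2g, Mrps28, Ino80c, Ccar2, Setd1b, Hey1, Cxcr5 and Cxxc1 among those named, either annotated gene end counted, as their strand was not in the gene table. Windows reached 1000 b on each side. Wilson intervals (95%) cover counting error only.

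Libraries were compared by exact permutation over 15 arrangements, and presence per region or gene by two-sided Fisher's exact tests over those present in 1 to 5 libraries, with Benjamini-Hochberg adjustment at 0.05. The computation was checked on simulated libraries with planted patterns, drawn without any tie between libraries of the same number. That check says nothing about how the tests perform on these data. Same-numbered libraries deviated together from their subset means (correlations 0.281, 0.300 and 0.321 over 11791 regions). That is a hint from the data, since the labels do not say what a number shares. Permutations with the replicate number as a block are therefore given beside the others. Alternatives changed the fold, q-value, list length, overlap, summit distance and gene window, or left out a library.

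Genes named were Cxxc1, up to 8 per subset-only class and 4 per pair class by their lowest within-list percentile of fold enrichment, 8 shared genes by their median percentile, and members of the 18 lists (274 genes, all found) with CFP1 in both libraries of 1 subset and neither of another. Other list members were named to describe their list. Predicted genes were passed over in the ranked classes, and a few qualifying genes are not reported here, though counts include them. The members and the lists were chosen with earlier results of these data known. Computation used SciPy 1.17.1, pandas 2.3.3 and NumPy 2.4.6 under Python 3.11.15, and matplotlib 3.10.9 for plots.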

Additional observations from a re-analysis of the deposited data

How the results depend on the processing

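With 2 libraries per subset the exact tests used could not pass 0.05, so their p-values say nothing about stability, and the counts of subset-only sites are descriptions. With peaks of 5-fold or more, regions in all 6 libraries numbered 1428 and genes 1617, NKp46+-only regions 8 and genes 6, and DN-only regions 28. With a −log10 q of 5 or more, NKp46+-only regions numbered 6 and genes 5. With summits within 250 b, NKp46+-only regions numbered 30. With lists of equal length, CCR6+-, NKp46+- and DN-only regions numbered 40, 42 and 23 and genes 32, 32 and 20, and the share of peaks at gene starts in CCR6+ less NKp46+ libraries turned from -1.81 to 2.42 percentage points. Leaving out each library in turn gave -16.7 to 13.0 points for that difference and -0.0476 to 0.197 for the log2 ratio of median widths, CCR6+ over NKp46+ (0.0747 with all). It also gave CCR6+-only regions of 118 to 1523 and genes of 97 to 409, NKp46+-only regions of 26 to 436 and genes of 18 to 205, and DN-only regions of 57 to 1206 and genes of 41 to 261. The highest counts arise when a subset rests on 1 library. With the replicate number kept as a block, exact permutation p-values were 0.5 for peak numbers and 0.333 for widths. They were 0.667 for the share at gene starts and 0.333 for the Jaccard index. Per region the smallest exact permutation p was 0.111, with 0 regions called. No call was possible with or without the block, so the block could not change one. Of the 8 highest-ranked genes per class, the pattern held with lists of equal length for 7 CCR6+-only, 3 NKp46+-only, 2 DN-only and 8 shared genes. With the whole gene counted it held for 7 CCR6+-only, 7 NKp46+-only, 5 DN-only and 8 shared genes. The genes were ranked by fold enrichment within classes of unlike size, so these counts do not compare the classes. Counting only genes with RefSeq starts, chosen after the data were seen, gave 2162 shared, 57 CCR6+-only, 11 NKp46+-only and 29 DN-only genes. Apart from the equal-length lists, the causes were not tested. Depth is unknown, so a site not listed in a subset cannot be told apart from one under its detection limit.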
